A study of Mus musculus with 12 samples.

Results

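Ddc, Maoa and Maob, which encode the enzyme that makes dopamine from L-DOPA and the 2 monoamine oxidases that break it down, were followed in mouse kidney with and without the clock factor BMAL1 in the renal tubule. They were found by symbol among the gene IDs of the count files, and make up 3 of the 38924 IDs; all 3 passed the filter on low counts. Knockout (KO) mice were Bmal1lox/lox/Pax8-rtTA/LC1 animals carrying a floxed gene of BMAL1 (Arntl), in which doxycycline acts through the Pax8-driven transactivator on the LC-1 Cre, a design aimed at tubule cells, so other kidney cells in the sample keep the gene. Doxycycline was given for 2 weeks in drinking water at 2 mg/ml, from 8 weeks of age. Wild-type (WT) mice were littermates. The labels give neither the alleles that the wild-type mice carried nor whether they drank doxycycline. All strains were on the C57BL/6J background, and whole kidneys were sequenced at zeitgeber time 16 (ZT16) and at ZT4, where ZT0 is lights on and ZT12 is lights off. The 12 libraries formed the groups KO ZT16, WT ZT16, KO ZT4 and WT ZT4, with 3 libraries each. Whether replicates are different mice is not stated, and p-values then reflect only how far replicates lie apart, which could include technical scatter.

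The kidney makes its own dopamine. Proximal tubule cells take up filtered L-DOPA, decarboxylate it with aromatic L-amino acid decarboxylase (the product of Ddc) and release dopamine, which acts on nearby receptors to lower sodium and phosphate reabsorption. The same cells inactivate dopamine with monoamine oxidases A and B (Maoa, Maob), flavoenzymes of the outer mitochondrial membrane. In mouse brain, Maoa has been described as a transcriptional target of BMAL1 and its partner NPAS2.

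The genes were chosen by their roles and selected on earlier results of these same libraries, among them the CPM values of Ddc in knockout and wild type at ZT16. That contrast is therefore given for all 3 genes as a description with no test. Fold changes of Ddc that use the ZT16 libraries in other ways are treated the same way.

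Ddc (ENSMUSG00000020182) lies on chromosome 11, from 11814101 to 11898144 on the minus strand (GRCm38, GENCODE M21). Maoa (ENSMUSG00000025037, 16619698 to 16687818, plus strand) and Maob (ENSMUSG00000040147, 16709282 to 16817366, minus strand) are neighbours on chromosome X. No exonic base of the 3 genes overlapped another annotated gene. Promoter sequences are shown because the deleted protein is a DNA-binding factor. They are the 250 bases before each start in RefSeq (GRCm38.p6), written 5′ to 3′ on the gene's strand, with motif matches in capitals. The table had an entry for 2 of the 3 genes, Ddc with 2 starts 7736 bp apart and Maoa with 1 start.
Ddc distal start, chr11:11898145-11898394, minus strand: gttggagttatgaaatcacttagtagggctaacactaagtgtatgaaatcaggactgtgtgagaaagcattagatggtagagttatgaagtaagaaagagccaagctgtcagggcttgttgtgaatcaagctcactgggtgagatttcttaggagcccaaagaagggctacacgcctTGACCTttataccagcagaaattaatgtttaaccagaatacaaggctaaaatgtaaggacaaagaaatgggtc
Ddc proximal start, chr11:11890409-11890658, minus strand: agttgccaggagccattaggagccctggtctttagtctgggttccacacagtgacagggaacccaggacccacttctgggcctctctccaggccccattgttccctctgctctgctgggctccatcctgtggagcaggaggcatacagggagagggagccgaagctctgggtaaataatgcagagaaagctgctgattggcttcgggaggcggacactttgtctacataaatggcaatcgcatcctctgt
Maoa, chrX:16619448-16619697, plus strand: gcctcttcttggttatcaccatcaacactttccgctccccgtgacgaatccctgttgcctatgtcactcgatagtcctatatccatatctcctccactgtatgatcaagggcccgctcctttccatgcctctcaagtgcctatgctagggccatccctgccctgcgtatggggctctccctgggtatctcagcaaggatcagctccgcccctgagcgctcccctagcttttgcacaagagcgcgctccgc

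Both strands were searched for the E-box CACGTG and the E′-box CACGTT, which BMAL1 and CLOCK bind, and the nuclear receptor half-site AGGTCA, to which REV-ERB and ROR proteins bind. The capitals before the distal Ddc start mark an AGGTCA on the strand opposite to the gene from base -73 to -68, counted from the start. The windows before the proximal Ddc start and the Maoa start held no match. Of 32851 promoter windows of the same length, 6.02% held CACGTG, 3.85% held CACGTT and 14.0% AGGTCA. The single match overlaps no other motif. Gene counts do not tell which Ddc start was used, and a match is a stretch of letters, not a shown binding site.

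Counts assigned to genes summed to between 25628887 and 38043491 per library, and 16150 genes were tested. The kidney label was met by the proximal tubule receptor genes Lrp2 and Cubn, at 2670 and 558.8 CPM in KO ZT16, 2851 and 629.9 in WT ZT16, 2650.0 and 598.6 in KO ZT4, and 2832 and 661.5 in WT ZT4. Arntl itself had 12.28, 13.36 and 15.01 CPM in KO ZT16 replicates 2, 4 and 6, against 10.52, 8.63 and 11.03 CPM in WT ZT16 replicates 1, 3 and 5, so every knockout library was above every wild-type library, opposite to a loss of transcript. Its log2 fold change in knockout was 0.43 ± 0.15 (SE) at ZT16 (adjusted p = 0.151), and -0.08 ± 0.14 at ZT4, where the groups overlapped (adjusted p = 0.777). Its counts add up all exons and all kidney cell types and the deleted exons are not given, so they check no label. KO ZT16 replicate 2 stood apart from its replicates: mitochondrially encoded genes took 22.3% of its counts, against 14.1% and 14.0% in KO ZT16 replicates 4 and 6. A chi-square per degree of freedom over gene counts was 191 and 169 between it and those 2 libraries, and 4.71 to 45.2 between other replicates of 1 group. Where it moved a fold change by over 1.5 times or across the threshold, both values are given for some genes but not for all. For example, Sult1a1 in knockout against wild type at ZT16 went from -0.23 (adjusted p = 0.478) to -0.42 without it (adjusted p = 0.0166). Between the times in wild type, adjusted p went from 0.201 to 0.00166 for Pts and from 0.0704 to 0.000489 for Slc7a8.

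Ddc was the most abundant of the 3 genes, and it was higher in knockout kidneys at both times. At ZT16 it had 233, 189 and 196 CPM (counts relative to the TMM-scaled library total) in KO replicates 2, 4 and 6, against 78.6, 69.6 and 80.2 CPM in WT replicates 1, 3 and 5. The lowest knockout library stood far above the highest wild-type library. The fitted fold change at ZT16 was 2.71, a log2 fold change of 1.44 ± 0.10 (SE), and 1.33 without KO ZT16 replicate 2. At that time 4.03% of all tested genes were called and the libraries of 15.9% did not overlap between genotypes. No reading is drawn from these shares, because this contrast led to the choice of the gene.

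At ZT4 Ddc had 184, 179 and 182 CPM in KO replicates 2, 4 and 6, against 149.7, 123 and 126 CPM in WT replicates 1, 3 and 5. The groups did not overlap, and the knockout libraries lay close together. Ddc rose 1.37-fold (log2 fold change 0.45 ± 0.10 SE, adjusted p = 0.0344), higher in 3 of 3 knockout libraries. Ddc was chosen with earlier results of these data known, so this p-value may not be independent of that choice. It was the only 1 of the 3 genes called at ZT4, where 3.29% of all tested genes were called (1.63% higher) and the libraries of 37.7% did not overlap. The call was lost when any single ZT4 library other than WT ZT4 replicate 1 was left out. Without WT ZT4 replicate 3 or 5 adjusted p was 0.16 and 0.109, and without KO ZT4 replicate 2, 4 or 6 it was 0.118, 0.113 and 0.124. The log2 fold change then ran from 0.39 to 0.46, and it was 0.55 without WT ZT4 replicate 1, where the call was kept.

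**Figure D1:**
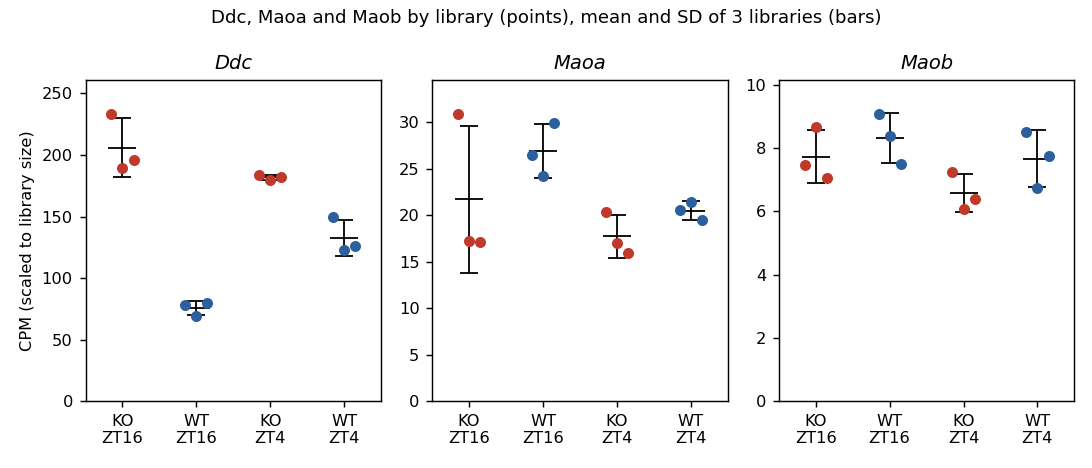
Scaled counts (CPM) of Ddc, Maoa and Maob in each library (points; knockout red, wild type blue) by genotype and zeitgeber time, with the mean and SD of 3 libraries. Ddc lay at 189 to 233 CPM in KO ZT16 and 69.6 to 80.2 CPM in WT ZT16, while the Maob groups overlapped at both times.

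The summed level of 10 proximal tubule markers was 13532.5 to 15310.1 CPM in KO ZT16 (up to 14037.1 CPM without replicate 2) and 17575.5 to 19438.7 CPM in WT ZT16, and 12500.2 to 12778 CPM in KO ZT4 and 15780.1 to 16324.9 CPM in WT ZT4. This sum was lower in knockout at both times, with no overlap, whereas Ddc was higher. It is weighted to the most abundant markers. Mean CPM in KO ZT16 and WT ZT16 was 3003 and 4513 for Slc27a2, 2837 and 3999 for Keg1, and 1797 and 2966 for Miox. In KO ZT4 and WT ZT4 it was 2896 and 3838, 1757 and 2753, and 1345 and 2250. Lrp2 differed less, with 2670 and 2851 CPM at ZT16, and Gatm was higher in knockout, with 1138 and 846.7 CPM. Single markers differed in direction, with a higher mean in knockout for 3 of the 10 at ZT16 and for 2 of the 10 at ZT4. Of the 10 markers, 1 was called higher and 2 lower in knockout at ZT16, and 0 higher and 3 lower at ZT4. In whole kidney, fewer cells of a type cannot be told apart from less RNA of some of these genes per cell.

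Nerve and adrenal cells also use Ddc, and their defining genes were nearly absent. Th, the tyrosine hydroxylase that makes L-DOPA in such cells, had 1 count and Dbh, which turns dopamine into noradrenaline, had 1 count over all 12 libraries. Pnmt, which makes adrenaline, had 0 counts of 389573374, which allows up to 0.0077 CPM (3 counts, counting error only). Chga, Phox2a and Snap25 had 1 count each and Chgb 11. Only 2 of the 10 chromaffin and sympathetic markers passed the filter, the vesicular monoamine transporters Slc18a1 and Slc18a2, and neither was called in any of the 4 comparisons between groups. Without KO ZT16 replicate 2, Slc18a1 was called lower in knockout at ZT16 (-0.65, adjusted p = 0.00105) and at ZT4 (-0.38, adjusted p = 0.018). The summed level of the list was 226 to 337 CPM in KO ZT16 and 339 to 432 CPM in WT ZT16, and 234 to 251 CPM in KO ZT4 and 293 to 347 CPM in WT ZT4. Nearly all of it was Slc18a1, which averaged 271 ± 57.7 CPM in KO ZT16 and 371 ± 52.1 CPM in WT ZT16 (SD, n = 3 each).

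Wild-type kidneys had less Ddc in the dark than in the light, and knockout kidneys did not. In wild type Ddc averaged 76.1 ± 5.73 CPM at ZT16 and 133 ± 14.6 CPM at ZT4 (SD, n = 3 each), a fold change of 0.572 (log2 -0.81 ± 0.10 SE). In knockout it averaged 206 ± 23.7 CPM at ZT16 and 182 ± 2.25 CPM at ZT4, with a log2 fold change of 0.18 ± 0.10 that was 0.08 without KO ZT16 replicate 2. The log2 fold change between the times was thus 0.99 ± 0.15 higher in knockout than in wild type, or 0.88 without that library. These values are a description with no test. The groups stood in the order KO ZT16, KO ZT4, WT ZT4 and WT ZT16, from high to low, with no overlap of libraries between neighbours. The knockout groups lay nearest to each other, with 189 CPM in the lowest KO ZT16 library and 184 CPM in the highest KO ZT4 library. The libraries of 43.3% of all tested genes did not overlap between the times in knockout and those of 42.6% in wild type.

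Maoa, whose enzyme oxidises serotonin, noradrenaline and dopamine, was not called in any comparison tested in the fit of all 12 libraries. At ZT16 it had 30.9, 17.2 and 17.1 CPM in KO replicates 2, 4 and 6, against 26.5, 24.2 and 29.9 CPM in WT replicates 1, 3 and 5. Replicate 2 was higher than every wild-type library and replicates 4 and 6 were lower than each of them. The log2 fold change at ZT16 was -0.31 ± 0.20 (SE), and -0.66 without KO ZT16 replicate 2. At ZT4 Maoa had 20.3, 17.0 and 15.9 CPM in KO replicates 2, 4 and 6, against 20.6, 21.4 and 19.5 CPM in WT replicates 1, 3 and 5. The groups overlapped, with a log2 fold change of -0.21 ± 0.20 (95% interval -0.64 to 0.22, adjusted p = 0.58).

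Between the times, Maoa was at 26.9 ± 2.88 CPM at ZT16 and 20.5 ± 0.989 CPM at ZT4 in wild type (SD, n = 3 each). Its libraries did not overlap between the times there, with a log2 fold change of 0.39 ± 0.20 (95% interval -0.04 to 0.82, adjusted p = 0.2). When KO ZT16 replicate 2, a library of neither group, was kept out of the pooled dispersion, the value was 0.40 and adjusted p = 0.00783. In a fit of the 6 wild-type libraries alone the value was 0.38 and adjusted p = 0.0216, so the call depends on how the spread was estimated. In knockout Maoa averaged 21.7 ± 7.91 CPM at ZT16 and 17.7 ± 2.30 CPM at ZT4, and the groups overlapped. The log2 fold change was 0.29 ± 0.20 (95% interval -0.14 to 0.72, adjusted p = 0.298), and -0.06 without KO ZT16 replicate 2 (adjusted p = 0.774). The interaction of genotype and time was -0.10 ± 0.28 (adjusted p = 1), and -0.45 without KO ZT16 replicate 2 (adjusted p = 0.382).

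The libraries highest in Maoa were also highest in mitochondrial counts. KO ZT16 replicate 2 had 30.9 CPM of Maoa with 22.3% mitochondrial counts, and WT ZT16 replicate 5 had 29.9 CPM with 22.4%. WT ZT16 replicates 1 and 3 had 26.5 and 24.2 CPM with 18.7% and 18.8%, and KO ZT16 replicates 4 and 6 had 17.2 and 17.1 CPM with 14.1% and 14.0%. At ZT4 the share was 12.6% to 12.8% in knockout and 16.3% to 18.0% in wild type. The part of the mitochondrial share in the values of Maoa and Ddc was not tested.

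**Figure D2:**
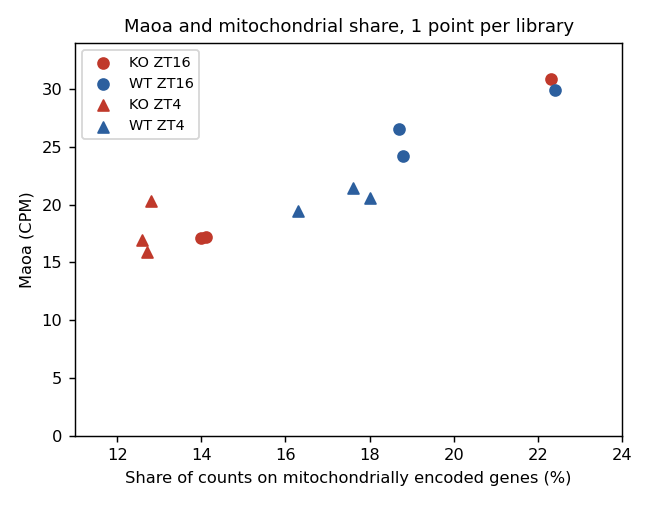
Maoa (CPM) against the share of counts on mitochondrially encoded genes (%) in each of the 12 libraries (knockout red, wild type blue; circles ZT16, triangles ZT4). The 2 libraries above 29 CPM are those with 22.3% and 22.4% of mitochondrial counts.

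Maob, the isozyme with a preference for phenylethylamine that also oxidises dopamine, had the lowest counts of the 3 genes. At ZT16 it had 7.46, 8.67 and 7.05 CPM in KO replicates 2, 4 and 6, against 9.07, 8.38 and 7.49 CPM in WT replicates 1, 3 and 5. At ZT4 it had 7.26, 6.08 and 6.40 CPM in KO replicates 2, 4 and 6, against 8.51, 6.73 and 7.75 CPM in WT replicates 1, 3 and 5. The genotypes overlapped at both times. The log2 fold change was -0.10 ± 0.13 (SE) at ZT16, or -0.09 without KO ZT16 replicate 2. At ZT4 it was -0.22 ± 0.13 (95% interval -0.50 to 0.06, adjusted p = 0.373). ZT16 against ZT4 gave 0.23 ± 0.13 in knockout (95% interval -0.05 to 0.52, adjusted p = 0.204) and 0.12 ± 0.13 in wild type (95% interval -0.17 to 0.40, adjusted p = 0.555). The interaction was 0.12 ± 0.18 (adjusted p = 1).

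In the edgeR fit of all 12 libraries, 0 of the 2 oxidase genes passed in any comparison tested. These comparisons were genotype at ZT4, the times in either genotype, and the interaction, and 0 had an unadjusted p under 0.05. DESeq2 and limma voom also called 0. By contrast, edgeR called Maoa between the times in wild type without KO ZT16 replicate 2 and in the wild-type libraries alone. Among all tested genes 3.29% were called for genotype at ZT4, 10.5% between the times in knockout, 6.5% between the times in wild type and 0.0186% for the interaction. The intervals at ZT4 leave room for Maoa at between 0.64 lower and 0.22 higher in knockout on the log2 scale.

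**Figure D3:**
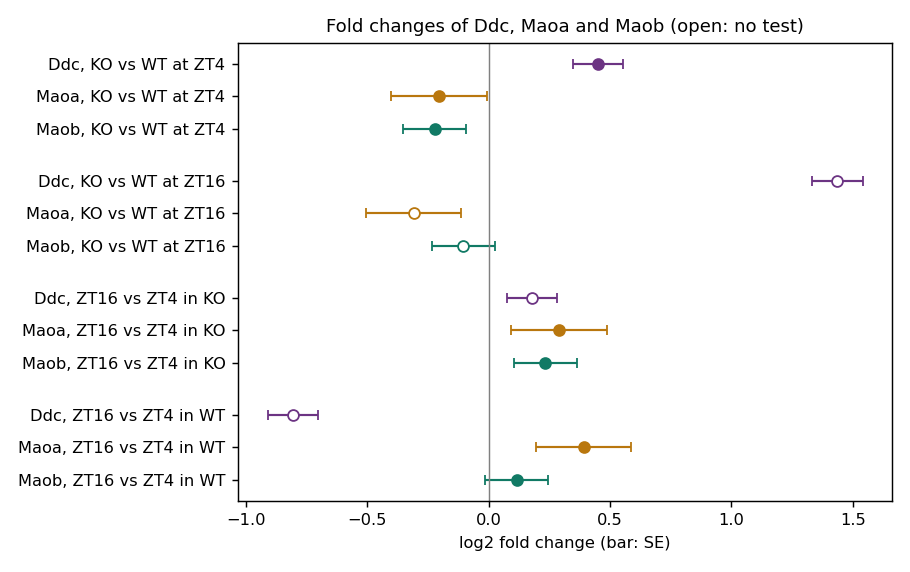
Log2 fold changes of Ddc, Maoa and Maob (bars: SE of the fit) for the 4 comparisons between groups, with open points where no test was made. Ddc is at 1.44 for KO against WT at ZT16 and at -0.81 for ZT16 against ZT4 in wild type, while the oxidases lie between -0.31 and 0.39.

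Levels of different genes were set against each other per kilobase of exon (CPM per kb). Ddc had 46.2 ± 5.32 CPM per kb in KO ZT16, 17.1 ± 1.28 in WT ZT16, 40.7 ± 0.503 in KO ZT4 and 29.8 ± 3.27 in WT ZT4 (SD, n = 3 each). Maoa had 5.21 ± 1.90, 6.45 ± 0.691, 4.26 ± 0.553 and 4.92 ± 0.237 CPM per kb in the same 4 groups. Maob had 2.77 ± 0.302, 2.98 ± 0.284, 2.36 ± 0.219 and 2.75 ± 0.321 CPM per kb. In every library the order was Ddc, Maoa, Maob. The level of Ddc per kilobase was 7.06 to 10.7 times that of Maoa in KO ZT16 libraries, and 2.50 to 2.77 times in WT ZT16 libraries. At ZT4 it was 8.44 to 10.7 times in knockout and 5.35 to 6.80 times in wild type. Maoa was 1.33 to 2.77 times Maob in KO ZT16 and 1.93 to 2.67 times in WT ZT16. At ZT4 Maoa was 1.67 to 1.87 times Maob in knockout and 1.62 to 2.13 times in wild type. With the longest annotated transcript as length, Ddc had 102 CPM per kb in KO ZT16 and 37.7 in WT ZT16, so its distance from the oxidases depends on the length used while the order does not.

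The rest of the dopamine pathway was read from lists of 60 further genes, of which 47 passed the filter. In knockout against wild type, 1 rose and 2 fell at ZT16, and 1 rose and 2 fell at ZT4. The share called, 3 of 47 at each time, stands beside 4.03% and 3.29% of all tested genes. The median log2 fold change of the 47 genes was -0.12 at ZT16 and -0.06 at ZT4, beside 0.02 and 0.00 over all tested genes. An unadjusted p under 0.05 was reached by 9 of the 47 genes at each time, beside 2591 of all 16150 tested genes at ZT16 and 2955 at ZT4. These counts rest on KO ZT16 replicate 2. Without it 48 genes passed the filter, 5 rose and 11 fell at ZT16, and 2 rose and 8 fell at ZT4, while the number called among all genes was 5099 at ZT16 and 2503 at ZT4, against 651 and 531 with it.

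Of 10 synthesis and cofactor genes 9 were tested, and Th was the untested gene. Tetrahydrobiopterin is the cofactor of the hydroxylation that makes L-DOPA, and its genes Gch1, Pts, Spr, Qdpr, Pcbd1 and Pcbd2 were not called. Without KO ZT16 replicate 2, Pts was called lower in knockout at ZT16 (-0.46, adjusted p = 0.0049), against 0.03 with it, and so was Qdpr (-0.24, adjusted p = 0.0411), against -0.04 with it.

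Of 7 genes for amino acid carriers, of which Slc7a8 and the pair Slc3a1 and Slc7a9 carry L-DOPA into tubule cells, 0 were called at ZT16 and 1 at ZT4. At ZT16 1 had an unadjusted p under 0.05, and DESeq2 and limma voom called 0. The gene called at ZT4 was Slc6a19, the neutral amino acid transporter of the brush border. It had 400.4, 359.9 and 462 CPM in KO ZT4 replicates 2, 4 and 6, against 600.1, 613 and 629 CPM in WT ZT4 replicates 1, 3 and 5. It fell by 0.59 ± 0.13 SE on the log2 scale (adjusted p = 0.0251), a call that held without KO ZT4 replicate 6 and ended without any other single ZT4 library (-0.61 to -0.51). Slc7a8 had 118, 209.8 and 211 CPM in KO ZT16 replicates 2, 4 and 6, against 157, 135 and 128 CPM in WT ZT16 replicates 1, 3 and 5. Replicate 2 was below every wild-type library and the other two were above. The log2 fold change was 0.36 ± 0.18 at ZT16 and 0.23 ± 0.18 at ZT4 (adjusted p = 0.358 and 0.504), and without KO ZT16 replicate 2 it was 0.58 at ZT16, with no overlap (adjusted p = 0.000847). Slc6a19 was at -0.37 at ZT16 (adjusted p = 0.159), and at -0.55 without that library (adjusted p = 0.00107). Slc3a1, which shares 26.5% of its exonic bases with Prepl on the opposite strand, was at -0.17 ± 0.11 and -0.26 ± 0.11 (adjusted p = 0.516 and 0.25), and at -0.33 and -0.26 without KO ZT16 replicate 2 (adjusted p = 0.00975 and 0.0306).

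Of 9 genes for dopamine carriers 6 were tested and 0 passed with edgeR at either time, with 1 at an unadjusted p under 0.05 at each time and 0 called by DESeq2 or limma voom. Without KO ZT16 replicate 2, edgeR called the carrier gene Slc18a1 lower in knockout at ZT16 (-0.65, adjusted p = 0.00105) and at ZT4 (-0.38, adjusted p = 0.018). The organic cation transporter gene Slc22a2, whose product can carry dopamine, averaged 324 ± 29.5 CPM in KO ZT16 (340.3 and 342 CPM without replicate 2) and 315 ± 20.1 CPM in WT ZT16 (SD, n = 3 each). The exporter gene Slc47a1 was at -0.07 ± 0.09 at ZT16 and -0.13 ± 0.09 at ZT4 (adjusted p = 0.758 and 0.449), and at 0.02 at ZT16 without KO ZT16 replicate 2. The plasma membrane dopamine transporter gene Slc6a3 had 19 counts over all libraries.

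All 7 further breakdown genes were tested, and at ZT4 0 passed with edgeR (1 at an unadjusted p under 0.05; 0 with DESeq2 or limma voom). Aldh2, the mitochondrial enzyme that oxidises the aldehyde made by monoamine oxidases, was at -0.14 ± 0.08 at ZT16 and 0.01 ± 0.08 at ZT4 (adjusted p = 0.435 and 0.943), and at -0.09 at ZT16 without KO ZT16 replicate 2. Akr1a1, an aldehyde reductase, had 3125 CPM in KO ZT16 replicate 2 and 1856 and 1937 CPM in KO ZT16 replicates 4 and 6, against 2689 to 3284 CPM in WT ZT16. Its log2 fold change was -0.36 ± 0.17 at ZT16 and -0.50 ± 0.17 at ZT4 (adjusted p = 0.33 and 0.157). Without KO ZT16 replicate 2 it was -0.65 at ZT16, with no overlap, and -0.49 at ZT4, and both were called (adjusted p = 0.000548 and 0.00252).

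For the interaction 0 of the 47 pathway genes passed with edgeR, 2 had an unadjusted p under 0.05, and DESeq2, limma voom and edgeR without KO ZT16 replicate 2 called 0.

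Dopamine receptors were close to or below detection in whole kidney. Drd1, the main receptor through which dopamine lowers sodium transport, had 1 to 12 counts per library and 60 over all 12. Drd3 had 16 counts in all and Drd2 had 1. Drd4 and Drd5 had 0, which allows up to 0.0077 CPM over all libraries (3 counts), although 48.6% of the exonic bases of Drd5 overlap the antisense gene Gm26560. None of the 5 receptors passed the filter with all 12 libraries. Without KO ZT16 replicate 2, Drd1 passed it and was not called in knockout against wild type. Its log2 fold change was then -0.47 at ZT16 (adjusted p = 0.639) and 0.79 at ZT4 (adjusted p = 0.313). Of 4 tested signalling genes 0 passed with edgeR for genotype at either time, with 0 at an unadjusted p under 0.05 and 0 by DESeq2 or limma voom. The G protein gene Gnas was at 0.09 ± 0.07 at ZT16 and 0.06 ± 0.07 at ZT4 (adjusted p = 0.604 and 0.659), and at 0.04 at ZT16 without KO ZT16 replicate 2.

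Of 7 sodium and phosphate transport genes whose products dopamine acts on, 1 fell in knockout at ZT16 and 0 passed with edgeR at ZT4 (1 at an unadjusted p under 0.05; DESeq2 called 1 and limma voom 0). It was Slc9a3r1, the scaffold protein NHERF1, at -0.27 ± 0.07 SE at ZT16 (adjusted p = 0.0483) and -0.26 ± 0.07 at ZT4 (adjusted p = 0.064; 0.0134 without KO ZT16 replicate 2). The ZT16 call held without KO ZT16 replicate 2 and ended without any other single ZT16 library (-0.30 to -0.25). Slc9a3, the sodium-hydrogen exchanger NHE3, had 28.7, 50.9 and 48.8 CPM in KO ZT16 replicates 2, 4 and 6, against 27.0 to 38.4 CPM in WT ZT16. Its log2 fold change was 0.39 ± 0.22 at ZT16 and -0.11 ± 0.22 at ZT4 (adjusted p = 0.409 and 0.799), and without KO ZT16 replicate 2 it was 0.60 at ZT16, with no overlap (adjusted p = 0.014).

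Of 4 tested genes of other amine enzymes, 1 rose in knockout at ZT4. It was Aoc2, a copper amine oxidase, which averaged 2.83 ± 0.368 CPM in KO ZT4 and 1.28 ± 0.0374 CPM in WT ZT4 (SD, n = 3 each), with a log2 fold change of 1.14 ± 0.19 SE (adjusted p = 0.0059). At ZT16 it averaged 1.56 ± 0.275 CPM in knockout and 1.33 ± 0.278 CPM in wild type and was not called. Tph2, one of the enzymes that make 5-hydroxytryptophan, the other main substrate of the decarboxylase, had 0 counts, and Tph1 had 20 over all libraries.

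Between the times, 3 of the 47 pathway genes rose and 3 fell at ZT16 against ZT4 in knockout, and 3 rose and 3 fell in wild type. Among all tested genes 10.5% were called in knockout and 6.5% in wild type. Without KO ZT16 replicate 2, 2 rose and 3 fell in knockout, and 11 rose and 11 fell in wild type. The share over all tested genes in that fit is not given here, so no reading is drawn from these counts. Sult1a1, a sulfotransferase of phenols and catechols, averaged 22.0 ± 4.45 CPM at ZT16 and 12.1 ± 0.677 CPM at ZT4 in knockout, and 25.8 ± 3.46 CPM at ZT16 and 14.0 ± 1.66 CPM at ZT4 in wild type (SD, n = 3 each). It rose by 0.86 ± 0.15 SE in knockout (adjusted p = 0.00966; 0.68 without KO ZT16 replicate 2) and by 0.88 ± 0.15 in wild type (adjusted p = 0.00686). Slc6a19 fell by 0.62 ± 0.13 in knockout (adjusted p = 0.016) and by 0.85 ± 0.13 in wild type (adjusted p = 0.00391). Aldh1a1 rose by 0.84 ± 0.21 and Aoc2 fell by 0.85 ± 0.19 in knockout (adjusted p = 0.0327 and 0.0204), and Ppp1r1b rose by 0.32 ± 0.09 in wild type (adjusted p = 0.0436). Aldh1a1 lost its call without KO ZT16 replicate 2 (0.69, adjusted p = 0.0504) or any KO ZT4 library (0.70 to 0.97), and Ppp1r1b without any of the 6 wild-type libraries (0.26 to 0.40). In knockout, the call of Slc6a19 ended without KO ZT4 replicate 6 (-0.53), and that of Aoc2 without KO ZT4 replicate 4 or 6 (-0.79 and -0.80). The calls of Sult1a1 in both genotypes and of Slc6a19 in wild type held without each library left out.

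**Figure D4:**
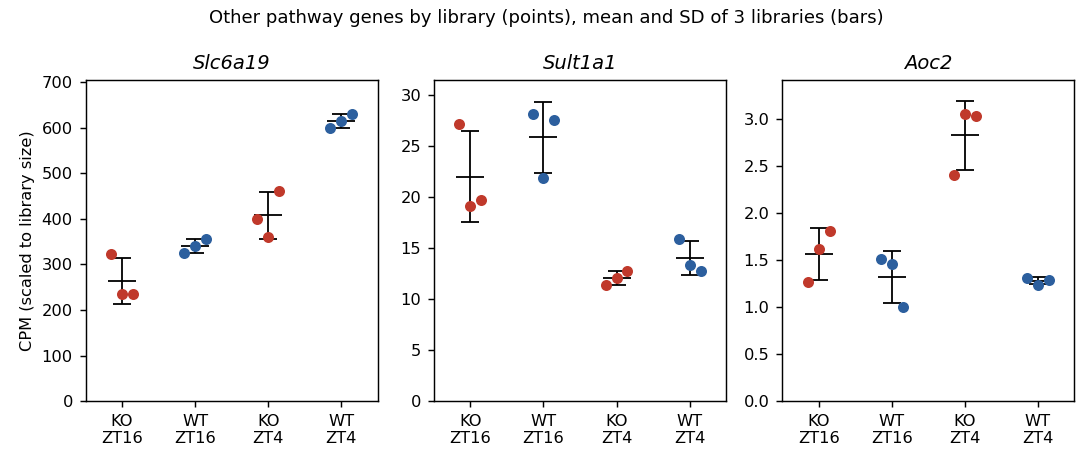
Scaled counts (CPM) of Slc6a19, Sult1a1 and Aoc2 in each library (points; knockout red, wild type blue) with the mean and SD of 3 libraries. Sult1a1 averaged 22.0 CPM in KO ZT16 and 12.1 CPM in KO ZT4, and Aoc2 averaged 2.83 CPM in KO ZT4 and 1.28 CPM in WT ZT4.

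The genes most like each of the 3 were ranked by Pearson correlation of log2 CPM over the 12 libraries among the 10412 genes averaging 5 CPM or more, as a description. The libraries share their groups and depth differences, so high values are common. For Ddc they were Stra6l (r = 0.973), Ahcyl2 (0.949), Amt, of the glycine cleavage system (0.940), Ppil6 (0.935) and Npas2, the partner of BMAL1 (0.933). Stra6l averaged 45.3 CPM in KO ZT16 and 15.1 CPM in WT ZT16, and 40.5 CPM in KO ZT4 and 32.3 CPM in WT ZT4. For Maoa they were Thoc1 (0.976), Csgalnact2 (0.969), Smim7, Rpap2 and Timm21 (0.959 each). For Maob they included Ddb1 (0.867), Dhx8 (0.859), Zfp976 (0.847) and Ubxn2a (0.845), and this closest likeness was weaker than for Ddc and Maoa.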

How the data were processed

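Whole kidneys were profiled with stranded poly(A) libraries. Per the submitters' processing notes, reads were trimmed with cutadapt 1.2.1, aligned to GRCm38 with TopHat2 2.0.9 and counted per gene with HTSeq 0.5.4p3. The authors deposited raw counts, 1 file per library. The sources used here state no counting mode, strand setting or annotation release.

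Lines for unassigned reads (no feature 3.50% to 5.96%, ambiguous 0.411% to 0.534%, not uniquely aligned 30.8% to 43.0%) were left out. Symbols and exon lengths came from GENCODE M21. Genes kept by filterByExpr were tested by the quasi-likelihood method of edgeR 4.0.16 after TMM scaling, with 4 groups and 12 libraries fitted together (R 4.3.3, 8 residual degrees of freedom), and p was adjusted by Benjamini-Hochberg over 16150 genes with a threshold of 0.05. SE was derived from the quasi-likelihood F. Log2 CPM used a prior count of 2. The fit was tested on simulated data. DESeq2 1.42.0 and limma 3.58.1 were alternatives. Members, gene lists and alternatives were chosen with earlier results of these data known. Text names the 3 genes, called and role-defining list genes, and the 5 most correlated genes each, except that some of these genes, which the counts include, are not reported here.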

Additional observations from a re-analysis of the deposited data

Results flagged for a closer look

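The fitted changes of Ddc between the times had opposite signs in the 2 genotypes, but the change in knockout was small. Every KO ZT16 library (189 to 233 CPM) was above every KO ZT4 library (179 to 184 CPM), and every WT ZT16 library (69.6 to 80.2 CPM) was below every WT ZT4 library (123 to 149.7 CPM). The fitted difference of log2 fold changes was 0.986, and 0.876 without KO ZT16 replicate 2. This difference was not tested, because ZT16 values of Ddc led to its choice. Without KO ZT16 replicate 2 the knockout difference between the times was 0.08 on the log2 scale.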

How the results depend on the processing

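Directions of Ddc and Maob held under every alternative run. Ddc at ZT4 (0.451 in log2) ran from 0.395 to 0.547 with 1 library left out, and at adjusted p under 0.01 its 0.451 was not called (0.0344). Maoa between the times in wild type was called in a fit of only the libraries compared (0.382). With 1 library left out it ran from 0.315 to 0.469, in knockout from -0.0569 to 0.434 and for the interaction from -0.454 to 0.0417. The cause was not tested. The called number of the 47 other pathway genes was 3 at ZT4 and 3 at ZT16 for genotype. At adjusted p under 0.01 both were 1, only the libraries compared gave 11 and 0, DESeq2 gave 5 at ZT4, and leaving out 1 library gave 1 to 10 and 0 to 16. Between the times 6 were called in knockout and 6 in wild type. At adjusted p under 0.01 these were 1 and 2, with DESeq2 10 and 12, with only the libraries compared 0 and 11, and with 1 library left out 1 to 10 and 2 to 22. Of all genes, KO against WT called 531 at ZT4 and 651 at ZT16, but 2503 and 5099 without KO ZT16 replicate 2. For the other alternatives the number over all genes is not given here. No reading about the pathway genes is therefore drawn from how their counts moved.

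The replicate numbers are shared by the 2 times within a genotype. Same-numbered libraries had correlations of -0.266 to 0.0542 between their deviations from group means. No pairing was seen by this measure, which with 3 libraries per group cannot exclude it. With the replicate number as a block, 1 pathway gene was called between the times in knockout and 2 in wild type. The number over all genes in that fit is not given here. Other scalings moved no median of all genes by over 0.1. Counts of Maob (179 to 316 per library) and of the receptors limit what can be detected.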
